A study of Mus musculus with 13 samples.

Results

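The transcripts described here encode the subunits of the mitochondrial respiratory chain and ATP synthase, complexes whose proteins are encoded partly by mitochondrial and partly by nuclear DNA. Members were chosen by gene symbol: the mt-Nd, mt-Co, mt-Cytb and mt-Atp genes of mitochondrial DNA, and the nuclear genes named Nduf (subunit series a, b, c, s and v), Sdh, Uqcr, Cox and Atp5. Of 55487 genes in the table, 97 matched, 13 from mitochondrial DNA and 84 from nuclear DNA. The filter on low counts kept 92 of these, all 13 mitochondrial and 79 nuclear, among 15511 genes tested. Cox8b, Cox8c, Cox7b2, Cox6c2 and one of the 2 genes named Atp5o did not pass and were not tested. RNA-seq was done on microglia pulled from whole mouse brain with anti-CD11b magnetic beads (MACS). One group came from mice exposed to maternal immune activation (MIA), in which the mother's immune system is activated during pregnancy, and the other from control mice (CON). The titles place all mice at postnatal day 4. The labels used here name no strain, genotype, sex, litter, activating agent or number of animals behind a library, and no brain region was separated. Each group had 5 retained libraries, and a further 2 MIA libraries (6 and 7) and 1 CON library (6) carry a mark of exclusion in their titles and stayed out of the main comparison. Since the labels do not tie libraries to separate animals, p-values measure the spread between these libraries.

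The respiratory chain passes electrons through complexes I, III and IV, pumping protons that ATP synthase, complex V, uses to make ATP; complex II feeds in electrons without pumping. Mitochondrial DNA supplies the membrane-buried proton-pumping core of complexes I and IV, the cytochrome b of complex III and the a and A6L subunits of complex V, while every other subunit, and the whole of complex II, is encoded in the nucleus. The mitochondrial genes are transcribed as long polycistronic RNAs that are cut apart, mostly at tRNAs, whereas each nuclear gene has its own promoter. Microglia, the resident macrophages of the brain, depend on these complexes while they survey the tissue, and reactive macrophages are known for moving toward glycolysis.

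The libraries held 25387063 to 35593538 counts. Microglial markers were abundant, and markers of other brain cells were present. All 10 microglial markers listed for the check passed as lower in MIA libraries, where 4.58% of all genes did. Their summed levels were 14536 to 18620 CPM (counts scaled by library size) in MIA and 22055 to 28292 CPM in CON. All 10 endothelial markers passed as higher, where 5.75% of all genes did, summing to 2628 to 4425 CPM in MIA and 872 to 1451 CPM in CON. Of 10 neuronal markers 6 were higher, summing to 117 to 170 CPM in MIA and 62.0 to 82.6 CPM in CON. None of the 6 mural, 6 astrocyte, 6 choroid plexus, 7 erythroid or 8 immediate early genes passed the threshold, and no marker of any list was at 0 in all libraries. The choroid plexus genes nevertheless summed to 751 to 12802 CPM in MIA and 27.2 to 15703 CPM in CON. They were thus abundant in some libraries of both groups and varied widely within each group. The part of these other cells in the results below was not tested, and fewer cells of a type and less RNA per cell cannot be told apart in bulk samples. CON 1 and CON 2 stood apart from the other control libraries: their immediate early genes summed to 2308 and 2126 CPM, against 8153 to 9335 CPM in CON 3 to 5, and their erythroid genes to 61.3 and 80.1 CPM, against 1160 to 2194 CPM in CON 3 to 5. Results were therefore also computed without these libraries.

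Transcripts of mitochondrial DNA were higher in the retained MIA libraries for some complexes, while none of their nuclear-encoded partners passed the threshold. Of 13 mitochondrial members 5 rose in the retained MIA libraries and none fell, where 5.75% of all genes tested were higher and 4.58% lower (edgeR quasi-likelihood test, Benjamini-Hochberg adjusted p under 0.05 over 15511 genes). The 5 were mt-Co1, mt-Co2 and mt-Co3 of complex IV, mt-Cytb of complex III and mt-Nd5 of complex I. The log2 fold change was positive for 11 of the 13, with a median of 0.35, against a median of -0.01 over all genes tested, 48.9% of which were positive. Among 79 nuclear members none passed the threshold, where 10.3% of all genes did. Their median log2 fold change was -0.04, with 23 positive and 56 negative. At an unadjusted p under 0.05 there were 5 of 79 nuclear members, 2 higher and 3 lower, beside 22.7% of all genes. DESeq2 called 2 nuclear members, where it called 14% of all genes, and limma-voom 0, where it called 10.8%.

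**Figure D1:**
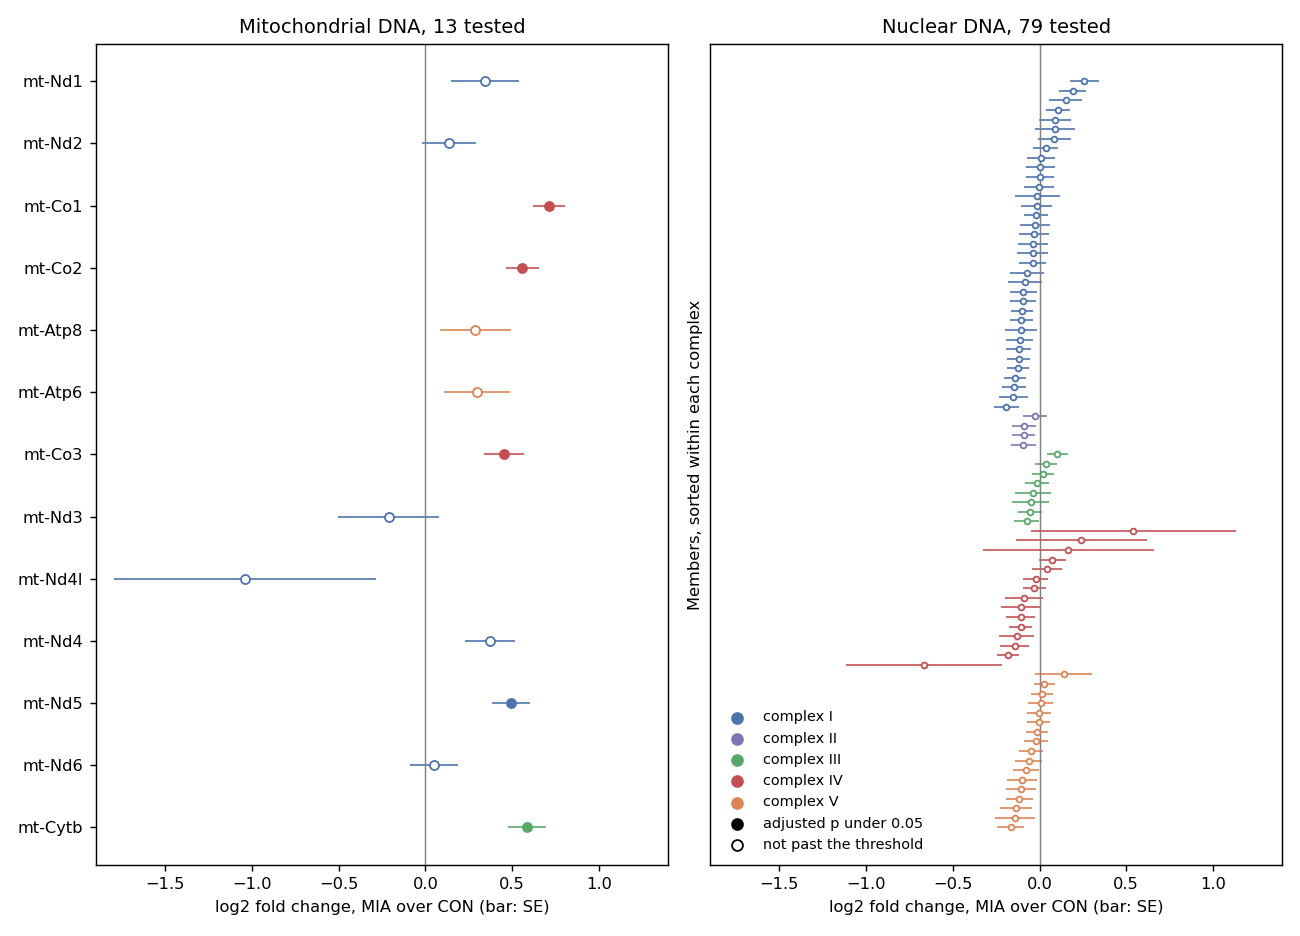
Log2 fold change of MIA over CON with its standard error (SE) for the 13 mitochondrial (left) and 79 nuclear members (right), coloured by complex, from the 5 retained libraries of each group. Filled points passed an adjusted p of 0.05: all 3 complex IV transcripts of mitochondrial DNA, mt-Cytb and mt-Nd5 are filled, and no nuclear member is.

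In the main comparison all 3 mitochondrial members of complex IV, cytochrome c oxidase, which passes electrons to oxygen, passed the threshold. mt-Co1 had the largest positive log2 fold change of the 13 mitochondrial members. mt-Co1 (chrM:5328-6872, GRCm38) encodes the subunit that holds the site where oxygen is reduced. It measured 8128, 6820, 6252, 7408 and 6979 CPM in MIA 1 to 5, against 3979, 4937, 4420, 3784 and 4603 CPM in CON 1 to 5. Every MIA library was above every CON library. The means were 7117 ± 700 CPM in MIA and 4344 ± 467 CPM in CON (SD, n = 5 each), a log2 fold change of 0.71 ± 0.09 (SE; adjusted p = 0.000487 by edgeR).

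mt-Co2 (chrM:7013-7696), whose product takes electrons from cytochrome c, measured 1656, 1513, 1293, 1495 and 1408 CPM in MIA 1 to 5, against 901, 1196, 1015, 881 and 1005 CPM in CON 1 to 5. The groups did not overlap, and the log2 fold change was 0.56 ± 0.10 (SE; adjusted p = 0.00244 by edgeR). mt-Co3 (chrM:8607-9390), the third core subunit, measured 374, 425, 467, 365 and 321 CPM in MIA 1 to 5, against 247, 261, 353, 287 and 277 CPM in CON 1 to 5. Its groups overlapped, since CON 3 exceeded MIA 5. The log2 fold change was 0.46 ± 0.12 (SE; adjusted p = 0.0225 by edgeR), a call that depends on how reads shared with a nuclear copy are counted, as described with the copies below.

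In complex III, cytochrome bc1, mitochondrial DNA encodes only cytochrome b, the subunit with both quinone sites. mt-Cytb (chrM:14145-15288) measured 3534, 3020, 2688, 3082 and 2767 CPM in MIA 1 to 5, against 1886, 2534, 1868, 1745 and 2018 CPM in CON 1 to 5. All MIA libraries were above all CON libraries. The means were 3018 ± 332 CPM in MIA and 2010 ± 308 CPM in CON (SD, n = 5 each), with a log2 fold change of 0.59 ± 0.11 (SE; adjusted p = 0.00403 by edgeR).

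In complex I, NADH dehydrogenase, only mt-Nd5 (chrM:11742-13565), an antiporter-like proton pumping subunit, passed the threshold among the 7 mitochondrial members. It measured 1352, 1155, 1047, 1265 and 1100 CPM in MIA 1 to 5, against 978, 975, 753, 709 and 788 CPM in CON 1 to 5, without overlap. The log2 fold change was 0.49 ± 0.11 (SE; adjusted p = 0.0107 by edgeR).

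mt-Nd4 (chrM:10167-11544), another pump subunit, had a log2 fold change of 0.37 with an adjusted p of 0.132 in edgeR. mt-Nd1 (chrM:2751-3707), near the quinone site, had 3455, 2665, 2695, 2965 and 2419 CPM in MIA 1 to 5, against 2482, 3472, 1624, 1744 and 1848 CPM in CON 1 to 5. Here CON 2 was the highest library of all, and the groups overlapped (log2 fold change 0.35 ± 0.20 SE, edgeR adjusted p = 0.336). mt-Nd2, a further pump subunit, was at 244 ± 34 CPM in MIA and 222 ± 55 CPM in CON (SD, n = 5 each), with a log2 fold change of 0.14. mt-Nd6, the one member read from the other strand of mitochondrial DNA, was at 33.3 ± 2.8 CPM in MIA and 32.2 ± 6.9 CPM in CON (SD, n = 5 each), with a log2 fold change of 0.05 and an edgeR adjusted p of 0.887. The last bases of mt-Nd5 and mt-Nd6 lie across from each other, and the protocol described does not mark strand. mt-Nd3 and mt-Nd4l had negative log2 fold changes that did not pass, -0.21 ± 0.29 and -1.04 ± 0.76 (SE). mt-Nd4l held 0 to 54 counts per MIA library and 18 to 98 per CON library.

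In complex V both mitochondrial members had positive log2 fold changes that did not pass. mt-Atp6 (chrM:7927-8607), the a subunit of the proton channel, measured 3303, 2202, 2133, 2521 and 2024 CPM in MIA 1 to 5, against 2295, 2732, 1419, 1534 and 1924 CPM in CON 1 to 5. The groups overlapped, with a log2 fold change of 0.30 ± 0.19 (SE; adjusted p = 0.397 by edgeR). mt-Atp8 (chrM:7766-7969), the small A6L subunit, was at 49.0 ± 14.2 CPM in MIA and 40.2 ± 10.5 CPM in CON (SD, n = 5 each), with a log2 fold change of 0.29 ± 0.20 (SE; adjusted p = 0.457 by edgeR).

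**Figure D2:**
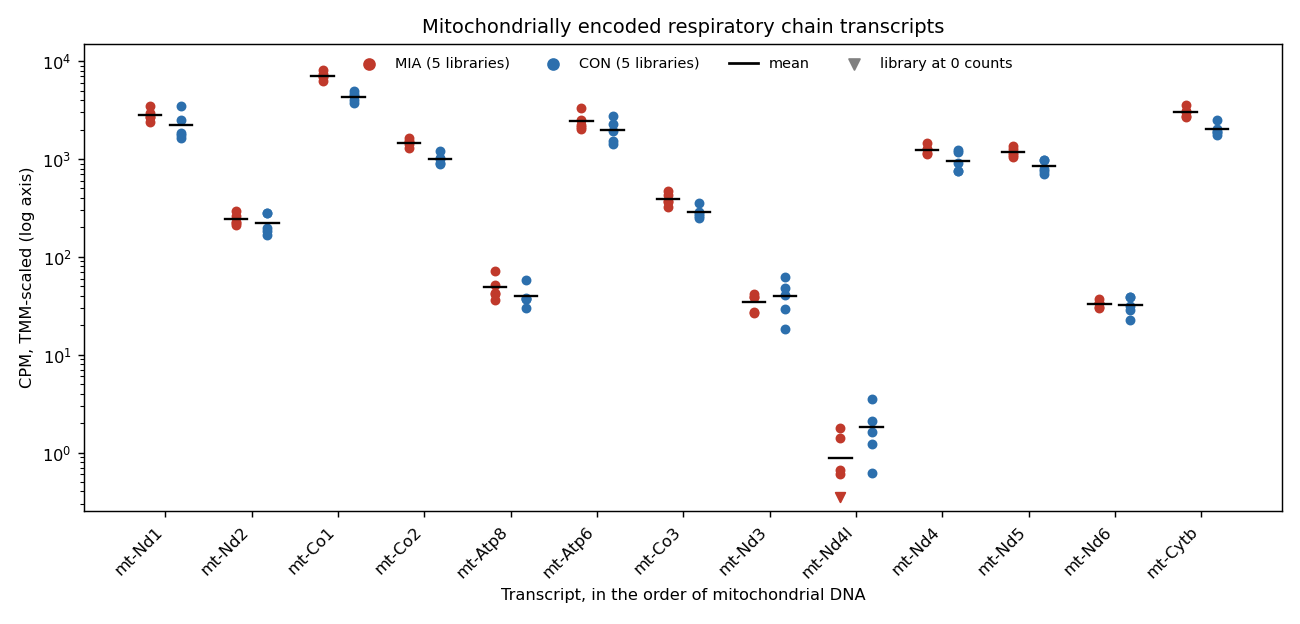
CPM of each transcript of mitochondrial DNA (log axis) in 5 MIA and 5 CON libraries, ordered along the mitochondrial genome, with the mean as a line. The MIA points lie above all CON points for mt-Co1, mt-Co2, mt-Nd5 and mt-Cytb, and mt-Nd4l lies far below the rest, with 1 MIA library at 0.

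Which calls held depended on the libraries used. With the 3 excluded libraries added to their groups (7 MIA and 6 CON), 2 of 13 mitochondrial members passed, mt-Co1 at a log2 fold change of 0.54 (edgeR adjusted p = 0.0371) and mt-Co3 at 0.38 (edgeR adjusted p = 0.0462). In that fit mt-Co2 had 0.38, mt-Cytb 0.41 and mt-Nd5 0.32, with edgeR adjusted p-values of 0.125, 0.0996 and 0.220, and 4.22% of all genes were called. Without CON 1 and CON 2, 8 passed, where 12.2% of all genes did, of which 4 were among the 5 of the main comparison. The additions were mt-Nd1 at a log2 fold change of 0.70, mt-Nd2 at 0.41, mt-Nd4 at 0.62 and mt-Atp6 at 0.57, and the loss was mt-Co3 at 0.34 (edgeR adjusted p = 0.0805). Without CON 1 and CON 2 but with the excluded libraries, 0 passed in edgeR, where 0.561% of all genes did; mt-Co1 then had a log2 fold change of 0.55 (edgeR adjusted p = 0.0860) and the 13 members had 12 positive values.

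For mt-Co1, mt-Cytb and mt-Nd5 the excluded MIA libraries sat near the controls. With all libraries scaled together, mt-Co1 measured 4120 and 5094 CPM in excluded MIA 6 and 7, 6266 to 8146 CPM in retained MIA, 3792 to 4947 CPM in retained CON and 4643 CPM in excluded CON 6. mt-Cytb measured 1789 and 2228 CPM in excluded MIA 6 and 7, 2694 to 3542 CPM in retained MIA, 1748 to 2539 CPM in retained CON and 2280 CPM in excluded CON 6. mt-Nd5 measured 673 and 854 CPM in excluded MIA 6 and 7, 1049 to 1355 CPM in retained MIA, 710 to 980 CPM in retained CON and 912 CPM in excluded CON 6. For mt-Cytb and mt-Nd5 neither excluded MIA library was above the retained CON range, and for mt-Co1 only MIA 7 was. mt-Co3, whose retained groups overlapped, measured 329 and 338 CPM in excluded MIA 6 and 7. Both values lay inside the retained MIA range, 322 to 468 CPM, and the retained CON range, 247 to 353 CPM.

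As shares of the library, all mitochondrial members together held 2.05% ± 0.23 of counts in MIA, from 1.82% to 2.40%, and 1.37% ± 0.24 in CON, from 1.16% to 1.75% (SD, n = 5 each). The excluded libraries held 1.20% and 1.60% in MIA 6 and 7 and 1.43% in CON 6. These shares leave out reads placed on the nuclear copies described below. With the copies counted, the retained libraries held 2.45% ± 0.24 in MIA, from 2.24% to 2.82%, and 1.68% ± 0.28 in CON, from 1.41% to 2.11% (SD, n = 5 each). The nuclear members together held 0.909% ± 0.026 in MIA and 0.896% ± 0.048 in CON (SD, n = 5 each). These are shares of reads, since the libraries carry no molecular identifiers. The ribosomal RNAs of mitochondrial DNA, cut from the same precursors, did not pass: mt-Rnr2 had a log2 fold change of 0.38 ± 0.13 and mt-Rnr1 of 0.69 ± 0.24 (SE; adjusted p = 0.102 and 0.0962 by edgeR). RNA was primed with oligo-dT, and how evenly this captured the different RNAs of mitochondrial DNA was not tested.

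Part of the mitochondrial genome also lies on mouse chromosome 1 as a near-identical nuclear copy, at chr1:24611535-24616197 (GRCm38), annotated by GENCODE M21 as the unprocessed pseudogenes Gm28439, Gm10222, Gm28438, Gm28437, Gm10925, Gm28661 and Gm29216. Reads from these genes and from their mitochondrial originals cannot be told apart where the sequences match. The transcripts are shown because they set how far a fold change of a single member can be read. mt-Co3 and Gm28437 match over 783 of 783 aligned bases, and mt-Nd4l and Gm10222 over 294 of 294. mt-Nd3 and Gm28438 match over 344 of 345 bases, the only difference being T3C (counted from the first base of mt-Nd3). mt-Co1 and Gm29216 match over 486 of 492 bases, with the differences T1056A, C1057T, A1059G, A1060G, C1062A and A1066T (counted from the first base of mt-Co1) all at the edge of the copy. In the windows below capitals mark the bases that differ, the mitochondrial ones from chrM:9459-9503 and chrM:6381-6425 and the nuclear ones from the minus strand at chr1:24613075-24613119 and chr1:24616153-24616197. The mt-Co3 window, chrM:8607-8651, is the same in Gm28437.
mt-Nd3: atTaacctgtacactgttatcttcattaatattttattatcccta
Gm28438: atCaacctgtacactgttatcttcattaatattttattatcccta
mt-Co1: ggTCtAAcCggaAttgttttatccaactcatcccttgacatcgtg
Gm29216: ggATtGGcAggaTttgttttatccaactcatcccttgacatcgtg
mt-Co3: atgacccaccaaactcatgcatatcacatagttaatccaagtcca

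The deposited counts placed most reads of 3 members on the nuclear copy. Of the sum of mt-Co3 and its copy, the copy held 83.3% to 89.0% in MIA and 85.2% to 91.1% in CON. For mt-Nd3 it held 65.6% to 75.9% in MIA and 69.1% to 80.7% in CON, and for mt-Nd4l 98.1% to 100% in MIA and 96.4% to 99.2% in CON. The copy's part was smaller for mt-Atp6, 10.7% to 32.2% in MIA and 10.0% to 20.9% in CON, for mt-Co2, 0.93% to 11% in MIA and 0% to 16.4% in CON, and for mt-Co1, 5.32% to 7.15% in MIA and 6.92% to 9.20% in CON. mt-Nd1, mt-Nd6, mt-Atp8 and mt-Cytb matched no other annotated transcript over 100 bases at 95% identity, and the one match of mt-Nd5, Gm4076, averaged 0 counts. Only annotated transcripts were searched. mt-Atp8 lies between mt-Co2 and mt-Atp6, whose copies Gm28661 and Gm10925 are neighbours on chromosome 1. The bases between those copies were not searched, so a copy of mt-Atp8 there would have been missed. When each member was summed with its copies, 4 of 13 members passed, where 10.3% of all genes did: mt-Co1 at 0.69, mt-Co2 at 0.52, mt-Cytb at 0.59 and mt-Nd5 at 0.49. mt-Co3 did not, at 2960 ± 268 CPM in MIA and 2515 ± 280 CPM in CON (SD, n = 5 each), with a log2 fold change of 0.24 ± 0.09 (SE; adjusted p = 0.139 by edgeR). mt-Nd4l turned positive at 0.33 (edgeR adjusted p = 0.321) and mt-Nd3 stayed negative at -0.29 (edgeR adjusted p = 0.439), the only negative value of the 13. Summed with copies, 1 member passed with the excluded libraries included, mt-Co1 at 0.52, where 4.21% of all genes did, and 10 without CON 1 and CON 2, where 12.2% did.

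**Figure D3:**
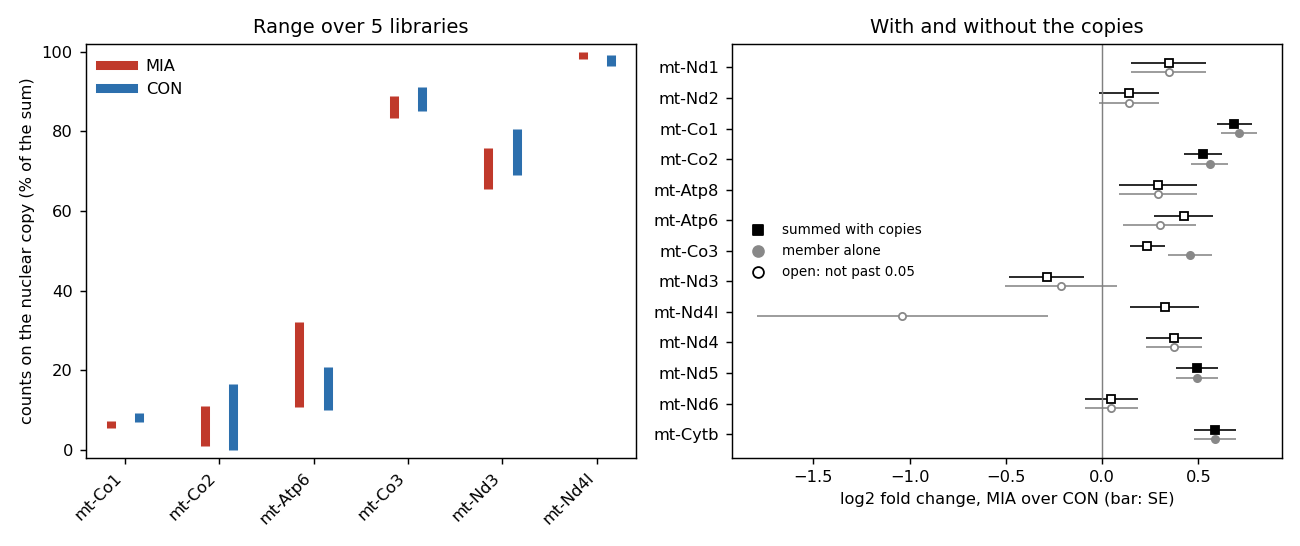
Left, the range over 5 MIA and 5 CON libraries of the share of counts that lie on the nuclear copy; right, log2 fold changes of MIA over CON (bars, SE) for each member summed with its copies and alone, filled where the adjusted p was under 0.05. The copy holds over 83% for mt-Co3, whose fold change falls short of the threshold once the copy is added, and mt-Nd4l changes sign.

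The mitochondrial genome packs its genes so closely that some neighbours share bases, and reads there belong to both. mt-Atp6 and mt-Co3 share 1 base, and mt-Nd5 and mt-Nd6 share 14 positions on opposite strands. The windows show the end of mt-Atp8 with the start of mt-Atp6 (chrM:7907-7989) and the end of mt-Nd4l with the start of mt-Nd4 (chrM:10137-10203), with the shared 43 and 7 bases in capitals.
mt-Atp8/mt-Atp6: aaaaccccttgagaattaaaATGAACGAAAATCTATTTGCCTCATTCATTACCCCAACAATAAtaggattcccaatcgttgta
mt-Nd4l/mt-Nd4: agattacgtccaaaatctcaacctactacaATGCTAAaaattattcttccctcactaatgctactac

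On a per-length scale 7 of the 13 mitochondrial members in MIA, and 6 in CON, were above every nuclear member, with copies left out. Length was that of the longest protein-coding transcript annotated for a gene, which lowers nuclear genes with 1 long transcript, such as Atp5g1 at 4715 bases. mt-Co1 stood at 4607 CPM per kilobase in MIA and 2812 in CON, mt-Atp6 at 3578 in MIA and 2909 in CON, and mt-Cytb at 2638 in MIA and 1757 in CON. The highest nuclear members were Cox4i1 at 562 CPM per kilobase in MIA and 637 in CON and Atp5b at 559 in MIA and 554 in CON. mt-Co3 was at 498 in MIA and 363 in CON alone, and at 3776 in MIA and 3208 in CON with its copy included. mt-Nd4l was the lowest mitochondrial member, at 2.99 CPM per kilobase in MIA and 6.18 in CON without its copy.

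The nuclear members differed little between the groups. Of the 74 with at least 10 CPM in both groups, log2 fold changes lay between -0.19 and 0.26, with standard errors of 0.06 to 0.13, and 46 (62.2%) were within 0.1 of 0. Over all genes at that level 35.1% were within 0.1 of 0, and values ran from -0.88 to 1.82. The groups did not overlap for 4 nuclear members, Ndufv1 on the higher side and Ndufv3, Ndufs3 and Cox4i1 on the lower side, where 5.59% of all genes were higher and 4.36% lower without overlap.

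In complex I, 35 nuclear members were tested, with a median log2 fold change of -0.04, 11 positive and 24 negative. The 7 that form the electron-carrying core with its flavin and iron-sulfur clusters also had a median of -0.04. Ndufv1 (chr19:4007384-4012806), the subunit that binds NADH and the flavin, measured 96.5, 98.4, 130, 105 and 110 CPM in MIA 1 to 5, against 90.8, 90.6, 88.3, 88.8 and 92.7 CPM in CON 1 to 5. The groups did not overlap, and MIA 3 was the highest. With a log2 fold change of 0.26 ± 0.08 (SE) it missed the threshold in edgeR (adjusted p = 0.0664) and passed in DESeq2 (adjusted p = 0.0475), with library totals as the only scaling, under a stricter filter and without MIA 1. Ndufv3, an accessory subunit beside it, was lower in every MIA library, at 53.7 to 57.4 CPM in MIA and 57.7 to 67.6 CPM in CON, with a log2 fold change of -0.19 ± 0.07 (SE; adjusted p = 0.115 by edgeR). Ndufs1, which carries iron-sulfur clusters, had a log2 fold change of 0.01 and Ndufa9, an accessory subunit, of -0.11.

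Complex II, succinate dehydrogenase, serves as a comparison with no mitochondrially encoded part. All 4 genes had small negative log2 fold changes, of which none passed: Sdha, the flavoprotein, -0.09; Sdhb, the iron-sulfur subunit, -0.09; and the membrane anchors Sdhc and Sdhd, -0.09 and -0.03. Sdha measured 323, 316, 316, 289 and 296 CPM in MIA 1 to 5, against 330, 367, 309, 325 and 308 CPM in CON 1 to 5, and the groups overlapped.

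The 8 nuclear members of complex III had a median log2 fold change of -0.03, next to 0.59 for mt-Cytb. The core proteins Uqcrc1 and Uqcrc2 were at 0.04 ± 0.06 and -0.01 ± 0.07, and Uqcrfs1, the Rieske iron-sulfur protein, was at 0.10 ± 0.06 (SE), and Uqcrq, a small subunit beside cytochrome b, had the lowest value, -0.07. Uqcrc1 measured 316, 289, 333, 298 and 303 CPM in MIA 1 to 5, against 294, 302, 309, 299 and 297 CPM in CON 1 to 5, and the groups overlapped. Cyc1, the cytochrome c1 subunit whose name falls outside the rule, was at -0.02.

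In complex IV the 15 nuclear members tested had a median log2 fold change of -0.09, next to 0.56 for the 3 mitochondrial ones. Cox4i1 (chromosome 8), the ubiquitous form of a regulatory subunit that binds ATP, measured 421, 418, 442, 436 and 433 CPM in MIA 1 to 5, against 444, 489, 471, 521 and 512 CPM in CON 1 to 5. Every MIA library was below every CON library, by little. The log2 fold change was -0.18 ± 0.06 (SE; adjusted p = 0.102 by edgeR). It passed as lower in DESeq2 (adjusted p = 0.0368), and in edgeR without CON 1 at -0.21 (adjusted p = 0.0300) and without CON 1 and CON 2 at -0.23 (adjusted p = 0.0346). Cox6b1 and Cox8a, small structural subunits, were both at -0.11.

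Several complex IV subunits exist as a widespread form and a form restricted to certain tissues. The widespread forms dominated. Cox4i2, the form known from lung, was at 3.2 CPM in MIA and 2.7 CPM in CON, beside 430 CPM in MIA and 487 CPM in CON for Cox4i1. Cox6a2 and Cox7a1, the heart and muscle forms, were below 1 CPM on average in each group, beside 141 CPM in MIA and 144 CPM in CON for Cox6a1 and 84.8 CPM in MIA and 82.3 CPM in CON for Cox7a2. Cox6b2, known from testis, was at 4.33 ± 2.81 CPM in MIA and 2.98 ± 2.52 CPM in CON (SD, n = 5 each). Cox8b, the muscle form, averaged 0.007 CPM in each group and was not tested, beside 163 CPM in MIA and 175 CPM in CON for Cox8a. No isoform pair held a gene that passed.

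In complex V the 17 nuclear members tested had a median log2 fold change of -0.05, and the 5 of the catalytic F1 head -0.02. Atp5b, the catalytic beta subunit, measured 1041, 1042, 1094, 1091 and 1087 CPM in MIA 1 to 5, against 1046, 1047, 1004, 1168 and 1041 CPM in CON 1 to 5. The groups overlapped, and the log2 fold change was 0.01 ± 0.06 (SE). Atp5a1, the alpha subunit, was at -0.02 and Atp5c1, the rotating gamma subunit, at -0.05. Atp5j2, a subunit of the membrane part, was at -0.17 ± 0.08 and Atp5s, coupling factor B, at 0.14 ± 0.16 (SE).

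Set against each other within each library, the 2 genomes differed between groups for complexes III and IV. The mean log2 CPM of the mitochondrial members minus that of the nuclear members was, for complex IV, 5.58, 5.66, 5.38, 5.49 and 5.44 in MIA 1 to 5, against 4.86, 5.02, 5.20, 4.65 and 4.77 in CON 1 to 5. For complex III it was 5.15, 5.02, 4.69, 5.00 and 4.85 in MIA 1 to 5, against 4.35, 4.61, 4.31, 4.10 and 4.34 in CON 1 to 5. Neither complex showed overlap between the retained groups, and the group difference was 0.61 for complex IV and 0.60 for complex III. For complex V it was 1.54 ± 0.22 in MIA and 1.20 ± 0.36 in CON, and for complex I 1.20 ± 0.30 in MIA and 1.18 ± 0.32 in CON (SD, n = 5 each), and both overlapped. CON 3 to 5 had complex V values of 0.985, 0.779 and 1.15, below the lowest MIA library at 1.23, while CON 1 and CON 2 had 1.37 and 1.70. These levels are not per length, and no test was made of them, since they average over chosen members.

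The complex I value weighs mt-Nd4l and mt-Nd3 like the abundant members. With CPM summed over the members before taking logs, its group difference was 0.43, and with the copies counted it was 0.26, in place of 0.03. For complex IV, which holds mt-Co3, the group difference with the copies counted was 0.52. The lowest MIA library was then at 6.33 and the highest CON library at 6.25. The values given per library leave the copies out. In the excluded libraries the complex IV value was 4.96 and 5.25 in MIA 6 and 7 and 5.00 in CON 6, and the complex III value 4.22 and 4.53 in MIA 6 and 7 and 4.56 in CON 6. Neither excluded MIA library reached the retained MIA range in either complex.

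**Figure D4:**
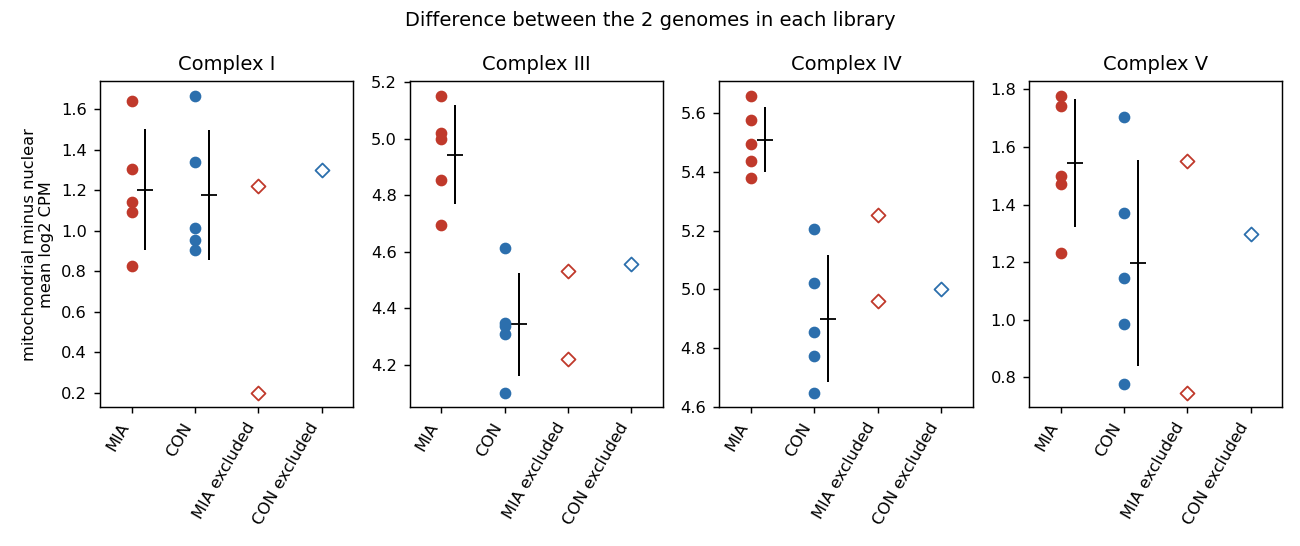
Mean log2 CPM of the mitochondrial members minus that of the nuclear members, per library, for the 4 complexes built from both genomes; circles are retained and diamonds excluded libraries, and black marks give mean and SD of the 5 retained ones. Retained MIA and CON circles are apart for complexes III and IV (differences of 0.60 and 0.61) and overlap for I and V, and the excluded MIA diamonds lie below the retained MIA circles for III and IV.

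The same contrast was tested on single pairs, the most abundant mitochondrial and nuclear member of complexes III, IV and V by mean CPM, in 2-sided exact permutation tests over the retained libraries with p adjusted over 5 ratios. The log2 ratio of mt-Co1 to Cox4i1 was 4.04 ± 0.16 in MIA and 3.15 ± 0.18 in CON (SD, n = 5 each; exact p = 0.00794, the smallest that 5 against 5 can give, adjusted 0.0397). Every MIA library was already above every CON library for mt-Co1 and below for Cox4i1. The p-value of this ratio was therefore fixed by those values and adds no support. Part of the ratio's difference is Cox4i1 itself, at -0.18, where the nuclear members of complex IV had a median of -0.09. The log2 ratio of mt-Cytb to Uqcrc1 was 3.29 ± 0.19 in MIA and 2.73 ± 0.21 in CON (SD, n = 5 each; exact p = 0.0159, adjusted 0.0397). Its groups overlapped, with the lowest MIA library at 3.01 and the highest CON library at 3.07. mt-Cytb alone already separated the groups and Uqcrc1 was at 0.04, so this p-value is no separate support. The ratio of mt-Atp6 to Atp5b differed by 0.30 (exact p = 0.214, adjusted 0.214), which was not beyond the spread between libraries. Without CON 1 and CON 2 its difference was 0.57 (exact p = 0.0357, the smallest that 5 against 3 can give, adjusted 0.0446), a call that rests on leaving out those libraries. With the excluded libraries mt-Co1 over Cox4i1 differed by 0.67 (exact p = 0.00466, adjusted 0.0233). mt-Cytb over Uqcrc1 then differed by 0.37 and no longer passed (exact p = 0.0443, adjusted 0.111). The ratio of mt-Co1 to mt-Nd1, within mitochondrial DNA, was 1.33 ± 0.13 in MIA and 1.01 ± 0.40 in CON (SD, n = 5 each; exact p = 0.151, adjusted 0.188), and its difference was 0.04 without CON 1 and CON 2, against 0.32 with them.

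A motif in the promoters of the nuclear members was counted, which the rule did not use. NRF1, a transcription factor known for binding genes of the respiratory chain, recognises a palindrome whose centre, GCGCA then any base (N) then GCGC, was searched on both strands, with each gene counted once. RefSeq promoters (GRCm38.p6, 250 bases before to 50 after a gene's start) were matched for 65 of the 79 nuclear members tested (82.3%). The motif was present for 17 of these (26.2%), against 5.19% of all 27025 genes with a RefSeq promoter. That background was not limited to genes that passed the filter on low counts, as the members were. By complex it was found for 7 of 31 members in complex I, 2 of 3 in complex II, 1 of 5 in complex III, 1 of 11 in complex IV and 6 of 15 in complex V. Of the members that hold it before the gene's start, 4 are shown with the motif in capitals: Sdha on the minus strand at chr13:74350309-74350358, Atp5c1 on the minus strand at chr2:10080433-10080469, Sdhd on the minus strand at chr9:50603899-50603948 and Cox6a1 on the minus strand at chr5:115349091-115349140. Their log2 fold changes were -0.09, -0.05, -0.03 and -0.02. Nrf1 itself was among 8 nuclear regulators of respiratory genes, of which none passed.
Sdha: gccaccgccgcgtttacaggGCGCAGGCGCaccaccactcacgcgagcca
Atp5c1: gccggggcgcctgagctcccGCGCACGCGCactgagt
Sdhd: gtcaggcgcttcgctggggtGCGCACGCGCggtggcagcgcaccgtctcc
Cox6a1: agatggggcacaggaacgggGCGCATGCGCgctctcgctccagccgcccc

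Nuclear members too can share reads with other genes. By sequence, 35 of them match another annotated transcript over at least 100 bases at 95% identity, and for 11 that gene holds over 5% as many counts as the member. These include Atp5f1 with Wdr77, Atp5j with Gabpa, Atp5g2 with Gm10175 and Cox4i1 with Emc8.

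Of the genes that assemble the complexes and express mitochondrial DNA 1 passed the threshold, where 10.3% of all genes did. None of 45 assembly factors tested passed, with log2 fold changes from -0.30 to 0.37 and a median of -0.04, and none of 5 subunits whose names fall outside the rule, Cyc1, Cycs, Ndufab1, Ndufa4l2 and Cox7a2l, whose values ran from -0.07 for Ndufab1 to 0.14 for Cycs. The 32 genes of mitochondrial RNA and DNA machinery ran from -0.48 to 1.15, with a median of -0.07, and 1 passed as higher, Mterf2, a mitochondrial termination factor family member, where 5.75% of all genes were higher. Mterf2 was at 2.44 ± 0.63 CPM in MIA and 1.1 ± 0.27 CPM in CON (SD, n = 5 each), with a log2 fold change of 1.15 ± 0.32 (SE; adjusted p = 0.0388 by edgeR). Tfam, which packages mitochondrial DNA, was at -0.0036 ± 0.13, Lrpprc, which stabilises mitochondrial messenger RNAs, at 0.01 ± 0.09, and Polrmt, the mitochondrial RNA polymerase, at -0.31 ± 0.16 (SE; adjusted p = 0.282 by edgeR); these 3 were named after their values were seen.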

How the data were processed

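The deposited table holds expected counts per gene (RSEM; the submitters' processing notes also name STAR and DESeq2, without versions; genome build and annotation: not given in the sources used here). Per the labels' protocols, RNA was primed with oligo-dT (Smart-Seq2), amplified and tagmented, which marks neither strand nor molecule. Expected counts were rounded to whole numbers. edgeR 4.0.16 (R 4.3.3; filterByExpr, TMM, robust glmQLFit, glmQLFTest) compared 5 MIA with 5 CON libraries over 15511 genes, with Benjamini-Hochberg adjusted p under 0.05. CPM are TMM-scaled; means of log2 CPM used a prior count of 2. Alternatives used DESeq2 1.42.0, limma 3.58.1, other scalings and filters, a replicate block, left-out and excluded libraries, and members summed with copies; those with copies, with the excluded libraries but without CON 1 and CON 2, or with totals free of CT010467.1, and the ratios with other libraries, were chosen after seeing the data. The testing step was tested on simulated data. Copies were found with blastn 2.17.0 among GENCODE M21 transcripts (GRCm38), which also gave coordinates. Permutation tests used scipy 1.17.1.

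Members, gene lists and tests were chosen with earlier results of these data known. The text names every mitochondrial member, every nuclear member past the threshold, and per complex the 3 most abundant nuclear members and those with the largest positive and negative log2 fold change. It also names isoform pairs, the members of lists of at most 5 genes and list genes past the threshold; Ndufa4 was counted in complex IV. One nuclear member of complex I, and 1 of the 5 ratios over which p was adjusted, are not reported here. No blank or summary row entered the totals.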

Additional observations from a re-analysis of the deposited data

Results flagged for a closer look

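Of 90 groups of 5 libraries checked (CPM of the named members, differences between genomes, and the mitochondrial share), 10 held 1 library far from the other 4; chance flags about 1 in 20. In MIA these were the lowest value of Uqcrc2 (122 CPM) and the highest of Uqcrq (69.7 CPM), Cox6a1 (155 CPM) and Cox7a1 (1.09 CPM). In CON they were the lowest value of Ndufa9 (110 CPM, in CON 1) and Cox6b1 (146 CPM), and the highest of mt-Atp8 (58.2 CPM, in CON 2), Ndufs1 (122 CPM), Cox6b2 (7.27 CPM, in CON 1) and Atp5b (1168 CPM, in CON 4). None of these members passed the threshold.

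Outside the members, the counts assigned to the nuclear copies Gm10925 of mt-Atp6 and Gm29216 of mt-Co1 were higher in MIA libraries. Gm10925 matches mt-Atp6 at 100% over 678 bases, and Gm29216 matches mt-Co1 at 99.79% over 483 bases. These counts therefore depend on how shared reads were split, and expression of the nuclear copies was not tested. Gm10925 measured 394, 671, 1011, 603 and 566 CPM in MIA 1 to 5, against 398, 305, 374, 205 and 322 CPM in CON 1 to 5, with overlap and a log2 fold change of 1.02 ± 0.25 (SE; adjusted p = 0.0250 by edgeR). Gm29216 measured 457, 484, 482, 453 and 512 CPM in MIA 1 to 5, against 403, 382, 415, 281 and 384 CPM in CON 1 to 5, without overlap, and its log2 fold change was 0.36 ± 0.10 (SE; adjusted p = 0.0329 by edgeR). The copy of mt-Co2, Gm28661, ran from 14.2 to 160 CPM in MIA and from 0 to 177 CPM in CON and did not pass. Among the libraries marked as excluded, MIA 7 had a complex IV difference between genomes of 5.25, above the 5.20 of the highest control library.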

How the results depend on the processing

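All genes called numbered 1602, 659 with all 13 libraries (658 with copies summed), 90 with all 13 except CON 1 and CON 2, and 1037 (without MIA 5) to 2262 (without CON 1) when 1 library was left out; 1058 were called without MIA 4. Mitochondrial members called were 5 in the main comparison and 4 to 6 when 1 library was left out, 2 with all 13 libraries, 8 without CON 1 and CON 2, 0 with all 13 except CON 1 and CON 2, 4 with copies summed, 1 with copies summed and all 13, and 10 with copies summed and without CON 1 and CON 2. mt-Co1, mt-Co2, mt-Cytb and mt-Nd5 passed in each of the 10 fits that left out 1 library, and mt-Co3 in 6 of 10, failing without CON 2, CON 5, MIA 2 or MIA 3 (largest adjusted p 0.0615, edgeR). mt-Nd1 passed without CON 2 (0.56) and mt-Nd4 without CON 1 (0.45). Nuclear members called were 0, with 0 to 1 when 1 library was left out, 1 with library totals only, under the stricter filter and without CON 1 and CON 2 (also with copies summed), and 2 in DESeq2. The labels do not say whether the replicate numbers pair the libraries. Centred within each group, same-numbered libraries correlated at 0.058 to 0.302, and MIA 1 and MIA 3 correlated best with the control of their own number. With a replicate block 1524 genes, 5 mitochondrial and 0 nuclear members were called. The complex III difference was 0.40 with all 13 libraries. The complex I difference changed sign with all 13 libraries (-0.14) and with a prior count of 0.5 (-0.0326), was 0.43 for summed CPM, and ran from -0.0834 to 0.15 when 1 library was left out. The cause of these shifts was not tested.

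Changes of sign occurred only among members not called in the main comparison; 796 of 873 values of 40 named members kept direction and side of the threshold, 42 changed sign, of which 1 passed the threshold, and of the rest 17 passed newly and 18 no longer passed. With all 13 libraries the log2 fold change was -0.0296 for mt-Nd6 (-0.0297 with copies summed) and -0.0731 for Cox7a1. Without CON 1 and CON 2 it was 0.22 for mt-Nd3, -0.0573 for Ndufs1, -0.0116 for Atp5b, -0.0555 for Cox7a1 and -0.0379 for Cox7a2. With all 13 except CON 1 and CON 2 it was 0.12 for mt-Nd3, -0.0106 for Ndufs1, 0.00948 for Sdha, -0.00427 for Atp5b, -0.21 for Cox4i2, -0.24 for Cox7a1 and -0.0225 for Cox7a2. With copies summed mt-Nd4l was 0.33, with all 13 as well 0.19, and without CON 1 and CON 2 0.56, where it passed as higher (adjusted p = 0.0365, edgeR). With library totals only the value was 0.0328 for Sdhd, 0.0492 for Uqcrc2, 0.0443 for Atp5a1, 0.0107 for Atp5c1 and 0.0402 for Cox6a1. Under the stricter filter it was 0.0133 for Sdhd, 0.0282 for Uqcrc2, 0.0227 for Atp5a1 and 0.0190 for Cox6a1. With totals and TMM free of mitochondrial genes and the abundant CT010467.1, Uqcrc2 was at 0.000720. When 1 library was left out, log2 fold changes ran from -0.40 to 0.0117 for mt-Nd3, -0.0546 to 0.12 for mt-Nd6, -0.0235 to 0.0858 for Ndufs1, -0.0552 to 0.0244 for Uqcrc2, -0.00664 to 0.0495 for Atp5b, -0.0420 to 0.00504 for Atp5a1, -0.19 to 0.40 for Cox4i2, -0.0677 to 0.00599 for Cox6a1, -0.15 to 0.39 for Cox7a1 and -0.0236 to 0.0773 for Cox7a2.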

Other observations

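Among nuclear-encoded proteins of mitochondrial import, metabolism, chaperoning and the mitochondrial ribosome 3 genes passed the threshold, each lower in MIA libraries. Of the 20 abundant proteins of import, metabolism and chaperoning 1 fell, Hspe1, the small partner of the mitochondrial chaperonin, at 60.5 ± 3.9 CPM in MIA and 75.4 ± 6.9 CPM in CON (SD, n = 5 each), with a log2 fold change of -0.32 ± 0.08 (SE; adjusted p = 0.0239 by edgeR). Of 78 mitochondrial ribosomal proteins, which build the ribosome that translates the 13 mitochondrial members, 2 fell. Mrpl43, of the large subunit, was at 42.2 ± 2.5 CPM in MIA and 50.9 ± 2.0 CPM in CON, with a log2 fold change of -0.27 ± 0.07, and Mrps2, of the small subunit, was at 37.3 ± 1.4 CPM in MIA and 45.2 ± 3.3 CPM in CON, with -0.28 ± 0.08 (SD, n = 5 each, and SE; adjusted p = 0.0309 and 0.0362 by edgeR). The groups did not overlap for these 3. The median log2 fold change of the ribosomal proteins was -0.04, and 4.58% of all genes were lower.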
